A study of Mus musculus with 2 samples.

Results

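The genes that bring proteins into mitochondria were followed in mouse adrenal gland, a gland whose cortex makes steroid hormones inside mitochondria and whose medulla makes catecholamines. The genes were chosen by name: annotated protein-coding genes whose symbol begins with Timm or Tomm, the Chchd genes followed by a number, and Dnajc19, Grpel1, Pmpca, Pmpcb, Lonp1, Hspd1 and Hspe1. The annotation holds 41 such genes, and 39 of the 16745 annotated genes with at least 1 read were among them. Timm8a2 and Tomm20l had no read in either library. Long-read RNA sequencing, in which 1 read follows 1 cDNA copy of an RNA molecule along its exons, was done on tissue of C57BL/6J mice obtained from The Jackson Laboratory. The series is 1 group of 2 libraries, called replicate 1 and replicate 2 after their biological replicate numbers, with no treatment, genotype or time to compare. One label calls the tissue male, the field for sex was left uncollected, and age and developmental stage are unknown. The libraries have separate biosample entries that point to the same donor entry, so a difference between them may be technical, and no condition is compared. The p-values take reads as independent and cover the counting of reads only. They do not measure the spread between animals or between preparations.

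Nearly all mitochondrial proteins are made in the cytosol and enter as unfolded chains. The TOM complex of the outer membrane is the common gate, the TIM23 complex and its ATP-driven motor take chains with a presequence into the matrix, and the TIM22 complex inserts carrier proteins into the inner membrane. Small TIM chaperones escort hydrophobic chains across the space between the membranes, and an oxidative pathway traps small cysteine-rich proteins there. In the matrix the presequence is cut off, the chaperonin folds the chain, and the Lon protease removes damaged proteins. In the adrenal cortex the same route serves the steroidogenic enzymes of the matrix and inner membrane.

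Replicate 1 held 848782 reads and replicate 2 held 545229, so 1 read was worth 1.18 and 1.83 CPM (reads per 1000000 reads of the library). CPM was not divided by transcript length because a read stands for a molecule. A level was also placed as a percentile among the 200 protein-coding genes with reads that are nearest in annotated length. A count of 0 in replicate 2 allows a level of up to 5.50 CPM (3 reads), which covers counting error only. The tissue label was met by the defining markers: the 5 cortex genes summed to 47222 and 44256 reads and the 5 medulla genes to 8567 and 12607, with none of either at 0. The 4 kidney markers had no read, and of 3 adipocyte markers Adipoq alone was seen, with 14 reads in replicate 1 and 0 in replicate 2. The 3 endothelial markers summed to 182 and 424 reads and the 3 macrophage markers to 717 and 139. The macrophage sum is mostly that of the short genes Lyz2 (550 and 77 reads) and Cd74 (156 and 36), while Adgre1 had 11 and 26. The part of these cell types in the values that follow was not tested, and in bulk tissue fewer cells of a type and less RNA per cell cannot be told apart.

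The import genes took about 1% of the reads of either library, a little more in replicate 1, and different genes made up most of that share. They held 10479 reads in replicate 1, which is 1.23% of its reads (95% exact Clopper-Pearson interval 1.21 to 1.26), and 5213 reads in replicate 2, which is 0.956% (0.930 to 0.982), so the intervals do not overlap. The mean was 1.10% ± 0.197 (SD, n = 2). In replicate 1 Chchd2 and Hspd1 led, with 38.2% of the import reads between them. In replicate 2 Lonp1 and Hspd1 held 79.9% of the import reads, against 19.1% in replicate 1. Without Lonp1 and Hspd1 the summed level of the other genes was 9983 CPM in replicate 1 and 1924 CPM in replicate 2.

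The libraries were compared gene by gene with Fisher's exact test (two-sided; reads of the gene and the remaining reads of each library). Genes with 10 or more reads in all entered, 9879 of them, and a gene was called where its Benjamini-Hochberg adjusted p was below 0.05. All 39 import genes with reads passed the read minimum. A log2 ratio sets replicate 2 over replicate 1 on the scale of CPM + 1, so that differences of low genes come out too small. Of the 39, 6 were higher in replicate 2 (Lonp1, Hspd1, Timm29, Pmpca, Tomm70a and Timm44), 29 were lower and 4 were not called (Pmpcb, Tomm34, Tomm40l and Timmdc1). Of all genes tested, 64.4% were called, 36.6% as higher and 27.9% as lower, so a call by itself was common in these libraries. The median log2 ratio was −2.97 over the import genes and 0.38 over all genes tested. It stayed at −2.97 when the 3 genes with no read in replicate 2 were set to their bound of 3 reads. TMM scaling moved all ratios down by 0.43, which left 6 higher and 30 lower, and moved the shares of all genes to 27.6% higher and 33.8% lower.

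**Figure D1:**
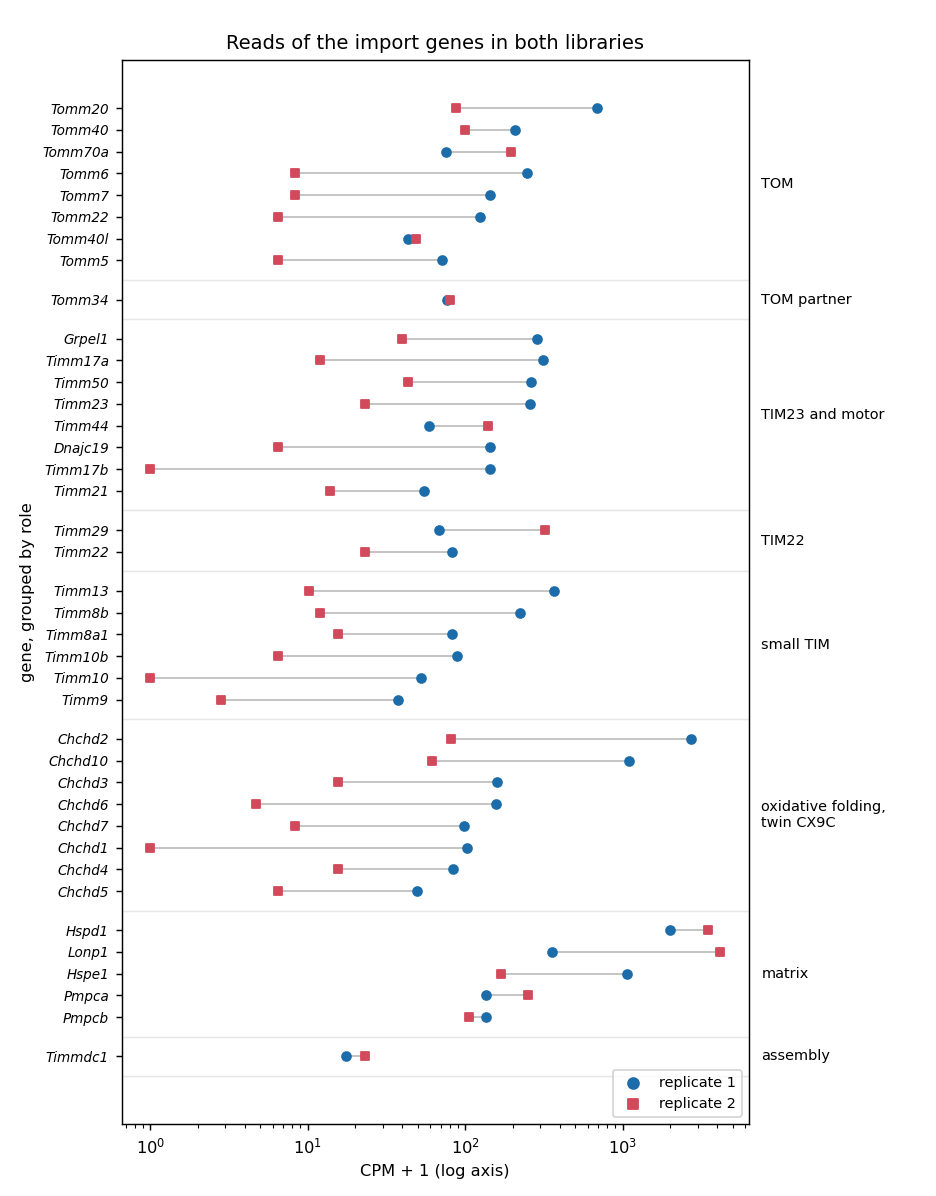
Level of the 39 import genes with reads, as CPM + 1 on a log axis, with 1 row per gene, grouped by role; circles are replicate 1, squares replicate 2, and a line joins the libraries. Squares lie left of circles for most genes, the 3 squares at the left edge are genes with 0 reads in replicate 2, and Hspd1 and Lonp1 lie at the right in replicate 2.

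The 5 matrix genes summed to 3703 CPM in replicate 1 and 8162 CPM in replicate 2. In replicate 2 this was the highest sum of the roles, while in replicate 1 the oxidative folding and twin CX9C genes summed to more, 4448 CPM, most of it from Chchd2. Hspd1 encodes the chaperonin HSP60, the barrel in which imported chains fold (chromosome 1, 55077835 to 55088243, mm10). It had 1704 reads (2008 CPM) in replicate 1 and 1888 reads (3463 CPM) in replicate 2, a mean of 2735 ± 1029 CPM (SD, n = 2). This put it at percentile 99.5 among genes of like length in both libraries. The fold was 1.72 in favour of replicate 2 (exact interval of the counts 1.61 to 1.84; Fisher's exact test, adjusted p = 2.47e-58). Lonp1, the ATP-dependent Lon protease of the matrix (chromosome 17, 56614297 to 56626887), had 302 reads (356 CPM) and 2276 reads (4174 CPM). It was the seventh import gene in replicate 1 and the first in replicate 2, 11.7-fold higher there (10.4 to 13.3), with an adjusted p by Fisher's exact test too small to be written as a number. Hspe1, the HSP10 lid of the chaperonin (chromosome 1, 55088132 to 55091307), went the other way, with 908 reads (1069.8 CPM) and 92 reads (169 CPM). That is 6.34-fold lower in replicate 2 (5.11 to 7.94; Fisher's exact test, adjusted p = 6.95e-100). On the total-read scale the chaperonin and its lid, whose products work together, thus differed between the libraries in opposite directions. With reads of all models counted, both directions turned once the length trend was removed, to −0.30 for Hspd1 and 0.53 for Hspe1 by transcript length. Both were called in the turned direction (exact binomial test, adjusted p = 4.44e-09 and 0.00573). The subunits of the presequence peptidase lay closer together. Pmpca had 114 reads (134 CPM) and 137 reads (251 CPM), 1.87-fold higher in replicate 2 (1.45 to 2.42; Fisher's exact test, adjusted p = 2.4e-06). Pmpcb, which carries the catalytic site, had 115 reads (135 CPM) and 57 reads (105 CPM), and was not called (Fisher's exact test, adjusted p = 0.16). That result depended on the setting: Pmpcb was called lower under TMM (log2 ratio −0.81, exact binomial test, adjusted p = 0.00098), DESeq2 size factors (−0.82) and removal of the coding length trend (−1.48), and higher with the transcript length trend removed (0.87, exact binomial test, adjusted p = 0.00141).

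A large part of the Hspd1 reads of replicate 1 lacked the 3′ end of the gene. Its main transcript has 12 exons and 2423 bases. In replicate 1, 760 of 1704 reads (44.6%, exact interval 42.2 to 47.0) were assigned to 1 truncated model that keeps the first 9 exons and ends after 1463 bases. In replicate 2 the model of the same exons held 21 of 1888 reads (1.11%, 0.690 to 1.70). All truncated models that keep the 5′ part took 54.5% and 2.01% of the Hspd1 reads, and the full known transcript 35.7% and 85.9%. The median over protein-coding genes with at least 20 reads was 0.71% in replicate 1 and 0% in replicate 2, and 5.59% of the 5220 such genes of replicate 1 were at or above Hspd1. Of the other import genes, only Tomm70a came near in replicate 1, with 25 of 63 reads (39.7%) in such models. With reads of known models alone Hspd1 had 608 and 1621 reads, a log2 ratio of 2.05, against 0.79 with all models. The ratio of −0.30 with the transcript length trend removed counts all models, truncated ones included. Removal of the length trend was not run on known models alone. The deposited models share ends between reads, so the exact end of each read is not known. Exon 9 lies within the coding sequence (chromosome 1, 55080102 to 55080347, minus strand, 246 bases). It is shown since 46.8% of the Hspd1 reads of replicate 1 were in truncated models that end in it, with runs of at least 5 A in capitals, from the GENCODE M21 transcript.
Hspd1 exon 9: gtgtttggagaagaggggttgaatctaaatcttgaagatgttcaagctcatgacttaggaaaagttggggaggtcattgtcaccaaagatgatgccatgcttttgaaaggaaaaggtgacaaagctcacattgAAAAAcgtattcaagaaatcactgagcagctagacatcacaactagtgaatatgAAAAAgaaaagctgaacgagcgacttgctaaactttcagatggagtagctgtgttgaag
The densest 20 bases of exon 9 hold 13 A. Exon 3 reaches 14 A in 20 bases, and truncated models that end in exon 3 held 0.998% of the Hspd1 reads of replicate 1.

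**Figure D2:**
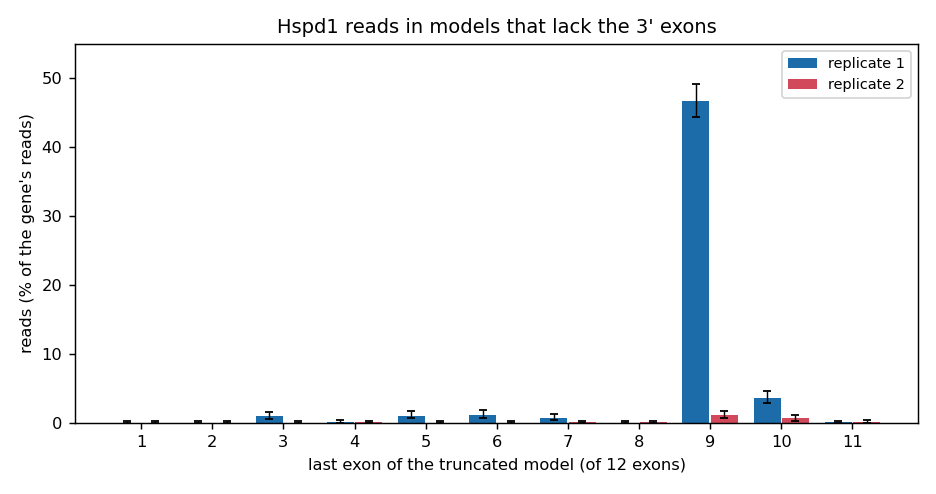
Share of the Hspd1 reads of each library (vertical axis, percent) in truncated models that keep the 5′ part, by the last exon they hold (horizontal axis, exons 1 to 11 of 12); bars are shares and error bars exact 95% binomial intervals. Exon 9 stands out in replicate 1, at 46.8%, against 1.11% in replicate 2, and every other exon lies under 4% in both libraries.

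Hspd1 and Hspe1 lie head to head. In the RefSeq promoter table (GRCm38.p6, the same build as mm10) their starts are 216 bases apart and point away from each other, while in GENCODE M21 the outermost starts lie 111 bases apart and the genes overlap. The stretch between them is shown because it belongs to both promoter windows (chromosome 1, 55088056 to 55088085, written on the plus strand, the strand of Hspe1). Capitals mark an Ets core (CCGGAAG on either strand, here in both directions over the same 10 bases) and a heat shock element (GAANNTTC) that overlaps it.
Hspd1 and Hspe1: ccgttctaGAACCTTCCGGAAGgccccgcg
The capitals run from 84 to 71 bases before the Hspe1 start. A match to letters is a description and not evidence of binding.

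Genes of the TOM complex were mostly lower in replicate 2 on total reads, beside 27.9% of all genes tested. Of the 8 with reads 6 were lower, Tomm70a was higher and Tomm40l was not called, with a median log2 ratio of −3.22. Removal of the transcript length trend left 4 lower and 4 not called. By coding length 1 was higher, 2 were lower and 5 were not called. Tomm20, the receptor that binds presequences (chromosome 8, 126930667 to 126945844), had 581 reads (685 CPM) and 47 reads (86.2 CPM), 7.94-fold lower in replicate 2 (5.89 to 10.9; Fisher's exact test, adjusted p = 6.96e-72). Tomm70a, the receptor for carriers and other internal signals, had 63 reads (74.2 CPM) and 106 reads (194 CPM), 2.62-fold higher (1.90 to 3.64; Fisher's exact test, adjusted p = 2.76e-09). On the total-read scale the receptors thus went in opposite directions. The call of Tomm70a ended with the transcript length trend removed (log2 ratio 0.44, exact binomial test, adjusted p = 0.11), and neither receptor was called with the coding length trend removed (Tomm70a −0.11, Tomm20 −0.25). With known models alone the log2 ratio of Tomm70a was 2.53, against 1.38 with all models. Tomm40, the channel itself, had 174 reads (205 CPM) and 54 reads (99.0 CPM), 2.07-fold lower (1.52 to 2.86; Fisher's exact test, adjusted p = 3.65e-06). Its paralog Tomm40l, whose product is 53.7% identical over the global alignment, had 36 reads (42.4 CPM) and 26 reads (47.7 CPM), a fold of 1.12 (0.652 to 1.91) that was not called. On total reads Tomm40 was thus read more often than Tomm40l in both libraries, and the gap was narrower in replicate 2. Their main transcripts have 1577 and 4712 bases, in that order. The log2 ratios were 0.32 and −0.99 with the transcript length trend removed, and −1.05 and 0.89 with the coding length trend removed. The narrower gap therefore depended on the setting. Tomm22, the central receptor of the complex, had 105 and 3 reads. The small subunits, each a short single-pass protein that stabilises the complex, were all low in replicate 2: Tomm6 had 210 and 4 reads, Tomm7 122 and 4 (144 and 7.34 CPM), and Tomm5 60 and 3 (70.7 and 5.50 CPM). Their folds in favour of replicate 1 were 33.7 (13.0 to 125), 19.6 (7.46 to 73.1) and 12.8 (4.19 to 64.0), with adjusted p by Fisher's exact test of 2.92e-38, 1.86e-20 and 1.66e-09. Tomm34, a cytosolic cochaperone named with the complex, had 64 reads (75.4 CPM) and 43 reads (78.9 CPM), almost the same level in both libraries. It was called higher with the coding length trend removed (log2 ratio 0.77, exact binomial test, adjusted p = 0.0174).

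The TIM23 channel and its motor had 7 of 8 genes lower in replicate 2 and Timm44 higher, with a median log2 ratio of −3.18. Among all genes tested, 27.9% were lower and 36.6% higher. Removal of the transcript length trend left 1 higher, 5 lower and 2 not called, beside 20.0% higher and 21.5% lower of all genes. By coding length 0 were higher, 5 lower and 3 not called, beside 24.9% higher and 23.2% lower of all genes. Timm23, the channel protein, had 220 reads (259 CPM) and 12 reads (22.0 CPM), 11.8-fold lower (6.61 to 23.1; Fisher's exact test, adjusted p = 5.04e-32). Timm17a and Timm17b are alternative partners of Timm23 whose products are 74.4% identical. Timm17a (chromosome 1, 135295213 to 135313778) had 264 reads (311 CPM) and 6 reads (11.0 CPM), 28.3-fold lower (12.8 to 77.7; Fisher's exact test, adjusted p = 7.92e-47). Timm17b (chromosome X, 7899357 to 7908351) had 122 reads (144 CPM) and none, at least 26.1-fold lower (Fisher's exact test, adjusted p = 7.03e-26). In replicate 1 both partners were read, Timm17a the more often, and in replicate 2 the level of either was near or under the limit of the depth. Timm50, the receptor of the channel, had 221 reads (260.4 CPM) and 23 reads (42.2 CPM), and Timm21, which links the channel to TOM, had 46 and 7 reads. Among the motor genes, Grpel1, the nucleotide exchange factor (chromosome 5, 36464998 to 36474080), had 243 reads (286 CPM) and 21 reads (38.5 CPM), 7.43-fold lower (4.75 to 12.2; Fisher's exact test, adjusted p = 1.77e-29). Dnajc19, a J protein of the motor, had 121 reads (143 CPM) and 3 reads (5.50 CPM), a fold of 25.9 (8.66 to 127; Fisher's exact test, adjusted p = 2.22e-21). Timm44, the scaffold that tethers the motor to the channel, was the exception on total reads. It had 49 reads (57.7 CPM) and 76 reads (139 CPM), 2.41-fold higher (1.66 to 3.53, Fisher's exact test, adjusted p = 4e-06). It was also higher with the transcript length trend removed (log2 ratio 1.59, exact binomial test, adjusted p = 7.7e-09). With the coding length trend removed it was not called (0.50, exact binomial test, adjusted p = 0.11).

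The TIM22 pair split on the total-read scale. Timm29, a metazoan subunit of the complex (chromosome 9, 21592722 to 21595970), had 57 reads (67.2 CPM) and 176 reads (323 CPM), 4.81-fold higher in replicate 2 (3.55 to 6.60; Fisher's exact test, adjusted p = 1.93e-28). Timm22, the channel-forming subunit, had 69 reads (81.3 CPM) and 12 reads (22.0 CPM), 3.69-fold lower (1.99 to 7.49, Fisher's exact test, adjusted p = 9.3e-06). Timm22 was also lower with the transcript length trend removed (log2 ratio −3.27, exact binomial test, adjusted p = 5.14e-18). With the coding length trend removed it was not called (−0.15, exact binomial test, adjusted p = 0.854).

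All 6 small TIM chaperones with reads were lower in replicate 2, summing to 720 reads (848 CPM) and 23 reads (42.2 CPM). Of all tested genes under 400 coding bases, 75.4% were lower. Removal of the transcript length trend left 2 of the 6 lower and 4 not called. Removal of the coding length trend left 1 lower and 5 not called. These proteins form hexamers in pairs, Timm9 with Timm10 and Timm8a1 or Timm8b with Timm13, and each carries the twin CX3C pattern, in which cysteines stand 4 residues apart on each of a pair of helices. A scan of the translated annotated coding sequences found the pattern in all 6 and in no other import gene, against 1.19% of the 10651 coding genes with reads that could be translated. The pattern was known for this family, so the scan is a description and not a test. Coding sequences are shown for the Timm8 paralogs, their partner Timm13 and Timm10, from GENCODE M21 without the stop codon, with the 4 cysteine codons of the pattern in capitals; they also show how short these coding sequences are.
Timm8a1: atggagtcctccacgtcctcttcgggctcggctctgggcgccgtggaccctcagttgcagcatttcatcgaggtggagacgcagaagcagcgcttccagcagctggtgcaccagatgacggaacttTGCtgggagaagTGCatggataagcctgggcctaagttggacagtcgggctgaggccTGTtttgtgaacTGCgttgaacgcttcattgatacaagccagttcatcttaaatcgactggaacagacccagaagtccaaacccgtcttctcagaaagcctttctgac
Timm8b: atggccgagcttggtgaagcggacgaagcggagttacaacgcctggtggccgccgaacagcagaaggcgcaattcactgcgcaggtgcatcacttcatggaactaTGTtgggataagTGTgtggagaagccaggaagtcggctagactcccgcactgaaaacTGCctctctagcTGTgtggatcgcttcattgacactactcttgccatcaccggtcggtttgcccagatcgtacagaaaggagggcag
Timm13: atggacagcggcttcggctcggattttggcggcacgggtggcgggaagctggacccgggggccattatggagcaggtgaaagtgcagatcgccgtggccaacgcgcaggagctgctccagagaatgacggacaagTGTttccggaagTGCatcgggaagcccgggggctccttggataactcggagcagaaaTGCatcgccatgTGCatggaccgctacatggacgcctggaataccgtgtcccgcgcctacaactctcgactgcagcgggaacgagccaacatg
Timm10: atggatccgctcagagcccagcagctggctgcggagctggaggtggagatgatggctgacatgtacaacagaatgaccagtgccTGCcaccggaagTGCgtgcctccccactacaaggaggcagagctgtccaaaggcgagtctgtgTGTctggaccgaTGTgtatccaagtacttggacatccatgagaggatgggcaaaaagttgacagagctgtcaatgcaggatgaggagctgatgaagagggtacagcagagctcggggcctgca
They run to 291, 249, 285 and 270 bases. The cysteine codons are numbers 43, 47, 62 and 66 in Timm8a1 (chromosome X, 134537256 to 134541865) and 36, 40, 55 and 59 in Timm8b (chromosome 9, 50603910 to 50605320), with the same 14 codons between the pairs. Over the whole global alignment, the frame included, the products of the paralogs are 39.4% identical.

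Timm13 (chromosome 10, 80899450 to 80900969) was the highest of these chaperones, with 312 reads (368 CPM) and 5 reads (9.17 CPM), 40.1-fold lower in replicate 2 (17.0 to 124; Fisher's exact test, adjusted p = 7.55e-58). Timm8b had 189 reads (223 CPM) and 6 reads (11.0 CPM), 20.2-fold lower (9.13 to 55.8; Fisher's exact test, adjusted p = 1.38e-31). Its paralog Timm8a1 had 69 reads (81.3 CPM) and 8 reads (14.7 CPM), 5.54-fold lower (2.66 to 13.3; Fisher's exact test, adjusted p = 1.03e-07). Timm8b was thus above Timm8a1 in replicate 1, while in replicate 2 the pair stood at 6 and 8 reads. Timm10 (chromosome 2, 84826997 to 84830213) had 44 reads (51.8 CPM) and none, at least 9.42-fold lower (Fisher's exact test, adjusted p = 1.97e-09). Its partner Timm9 had 31 reads (36.5 CPM) and 1 read (1.83 CPM), a fold of 19.9 (3.32 to 812; Fisher's exact test, adjusted p = 1.19e-05). Timm10b, which joins the hexamer to the TIM22 complex, had 75 and 3 reads.

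The genes of oxidative folding and the twin CX9C proteins gave the highest import levels of replicate 1 and were all lower in replicate 2, 8 of 8, summing to 3775 reads (4448 CPM) and 102 reads (187 CPM). Of all genes tested, 27.9% were lower. Removal of the transcript length trend left 6 of the 8 lower and 2 not called. Removal of the coding length trend left 5 lower and 3 not called. The twin CX9C pattern, the cysteine frame that the oxidative pathway recognises, was found in all 8 and in no other import gene, against 1.72% of the translated coding genes. The group is named after this pattern, so the scan describes it and tests nothing. Chchd2, a regulator of respiration and of cristae (chromosome 5, 129881156 to 129887470), had 2301 reads (2711 CPM) and 44 reads (80.7 CPM), 33.6-fold lower (24.9 to 46.4), with an adjusted p by Fisher's exact test too small to be written as a number. It was the first import gene in replicate 1. Its paralog Chchd10 (chromosome 10, 75933130 to 75937747), whose product is 53.2% identical, had 928 reads (1093 CPM) and 33 reads (60.5 CPM), 18.1-fold lower (12.8 to 26.4; Fisher's exact test, adjusted p = 1.15e-150). Chchd2 was above Chchd10 in replicate 1. In replicate 2 the pair stood at 44 and 33 reads, with exact Poisson intervals that overlap (58.6 to 108 and 41.7 to 85.0 CPM). Chchd4, the oxidoreductase Mia40 that oxidises cysteine-rich chains as they enter, had 70 reads (82.5 CPM) and 8 reads (14.7 CPM). Chchd3 and Chchd6, subunits of the cristae junction complex MICOS, had 134 and 8 reads and 132 and 2 reads. Chchd1, a subunit of the mitochondrial ribosome, had 86 reads (101 CPM) and none, at least 18.4-fold lower (Fisher's exact test, adjusted p = 4.65e-18). Chchd7 had 83 reads (97.8 CPM) and 4 reads (7.34 CPM), a fold of 13.3 (5.01 to 50.1; Fisher's exact test, adjusted p = 5.46e-13). Chchd5 had 41 reads (48.3 CPM) and 3 reads (5.50 CPM), a fold of 8.78 (2.80 to 44.3; Fisher's exact test, adjusted p = 8.14e-06). Timmdc1, a complex I assembly factor that the name rule brings in, was among the lowest, with 14 and 12 reads, and was not called. It was called higher with the transcript length trend removed (log2 ratio 1.79, exact binomial test, adjusted p = 0.00645) and on known, NIC and NNC reads alone (2.38, Fisher's exact test, adjusted p = 0.0148).

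Short import genes were lower in replicate 2, as short genes at large were, while long ones went both ways. Of the 11 import genes whose main annotated transcript is under 1000 bases, 11 were lower in replicate 2, as were 75.9% of all tested genes of that length. From 1000 to 1500 bases 6 of 6 were lower, beside 75.7% of all genes. From 1500 to 2500 bases 2 were higher, 6 lower and 3 not called, beside 30.0% higher and 28.2% lower among all genes. At 2500 bases and more 4 were higher, 6 lower and 1 not called, beside 56.3% higher and 9.19% lower. The short import genes therefore went with other short genes, while the long ones held more lower calls than long genes at large. By coding length the import genes lay closer to the rest: 14 of 14 were lower under 400 coding bases (75.4% of all genes), 12 of 13 from 400 to 800 (57.8%), 3 of 8 from 800 to 1500 (26.4%) and 0 of 4 above that (5.14%). Products of the import genes are short, with a median of 171 residues against 400 over translated coding genes with reads.

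To set each gene against others of its length, the running median of the log2 ratio over genes in order of length was subtracted and the reads were tested again with an exact binomial test. By transcript length 6 import genes were then higher, 20 lower and 13 not called, beside 20.0% higher and 21.5% lower of 9166 genes, and the median log2 ratio moved to −0.99 (−0.86 with the 3 genes without reads in replicate 2 at their bound). By coding length, an ordering added after the data were seen, 5 were higher, 15 lower and 19 not called, beside 24.9% higher and 23.2% lower of 9486 genes, with a median of −0.68. Lonp1 and Timm29 were higher under every scaling, filter and ordering tried, at 2.09 and 0.74 by transcript length and 2.06 and 3.35 by coding length. Chchd2 (−1.74 and −2.66), Chchd10 (−0.86 and −1.24), Timm13 (−2.58 and −2.15) and Timm17a (−5.30 and −2.70) were lower under both. Counted over all models, the chaperonin genes traded places: Hspd1 became lower (−0.30 and −0.48) and Hspe1 higher (0.53 and 0.46) than genes of like length. Each was called under both orderings. Pmpca turned to −0.56 by transcript length and was not called by coding length (−0.08). The calls of Tomm40, Timm23, Tomm70a, Timm8b, Tomm7, Dnajc19, Chchd7, Timm8a1, Tomm5, Chchd5, Timm10 and Timm9 ended by transcript length, at log2 ratios of 0.32, −0.74, 0.44, −0.99, −1.23, −1.02, −0.14, −0.40, 0.00, −0.62, −2.48 and −0.54 in that order, of which that of Timm10 depends on the 1 CPM added to its 0 reads. Tomm20 was lower by transcript length (−4.07) and not called by coding length (−0.25). The same held for Tomm22 (−2.86 and −1.44), Timm22 (−3.27 and −0.15), Chchd4 (−3.93 and 0.50), Timm10b (−5.18 and −0.63) and Timm21 (−3.06 and −0.66).

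**Figure D3:**
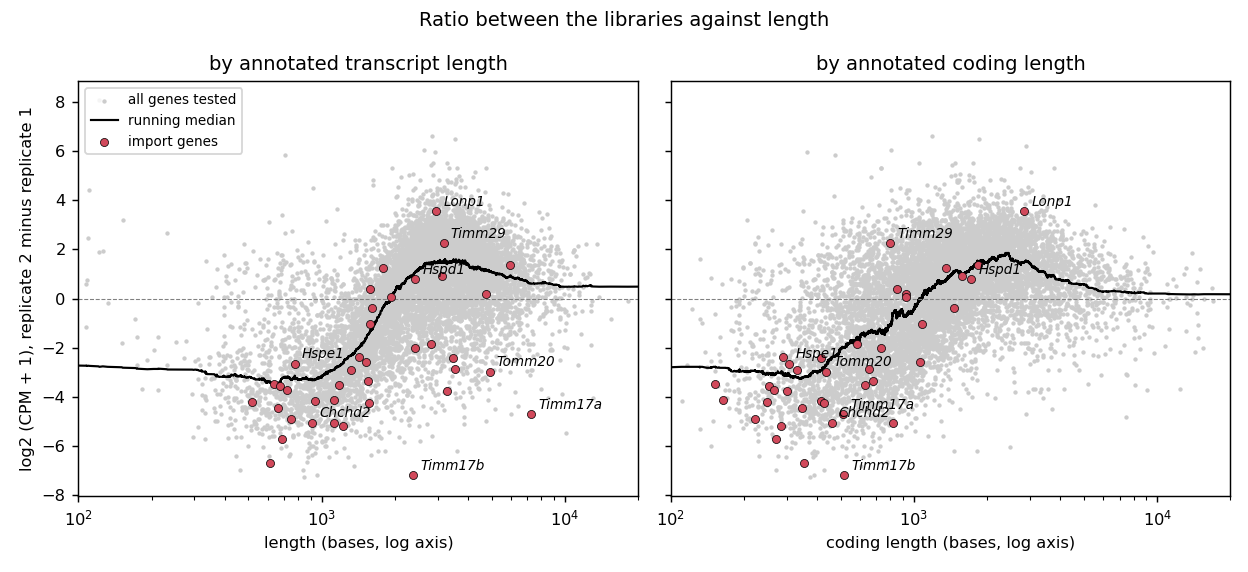
Log2 ratio of replicate 2 over replicate 1 (vertical axis, after adding 1 CPM) of all genes tested (grey) and import genes (red), against annotated transcript length (left) and coding length (right) in bases on log axes; the black line is the running median. The line lies near −3 for the shortest genes and above 0 for long ones; Tomm20, Timm17a and Timm17b lie far below it on the left and nearer to it on the right, and Lonp1 lies above it on both.

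The deposited models give some measure of where molecules ended. A read assigned to a known transcript is listed with the annotated length, whatever its own ends. Spliced incomplete models, NIC models and NNC models carry ends of their own. NIC and NNC models are spliced structures that join known splice sites in an unannotated way, or that use an unannotated splice site. Models of all these kinds were taken where they keep the last junction of the main transcript. In replicate 1, 11 import genes whose annotated last exon has at least 1000 bases had such models, and in 10 of them the median last exon was under 50% of the annotated one, in 65 of 68 reads. Among 21 genes with a shorter annotated last exon this held for 3, in 20 of 351 reads. For Tomm20 the median was 516 bases against 4393 annotated, over 13 reads. For Timm17a it was 697 against 6791, over 24 reads, for Grpel1 639 against 3025, over 4 reads, and for Timm17b 483 against 1864, over 7 reads. On total reads most of the 10 genes were lower in replicate 2: Grpel1, Timm17a, Timm17b, Timm21, Timm22, Tomm20 and Tomm22. Pmpca and Tomm70a were higher, with medians of 831 against 1704 bases (6 reads) and 244 against 4123 bases (2 reads). Tomm40l was not called. Timm29, also higher in replicate 2, was the gene outside the 10, with 1 such read that had the full 2821 bases. With the transcript length trend removed, all of the 10 but Tomm70a were called lower, and Timm29 was higher. With the coding length trend removed, only Grpel1, Timm17a and Timm17b of the 10 were lower, and Tomm40l was higher. A link between the last exons and these calls was not tested. These are few reads beside those of the known transcripts (556 for Tomm20 in replicate 1), whose own ends were not tested. Tomm40l was called lower with the transcript length trend removed (log2 ratio −0.99, exact binomial test, adjusted p = 0.0249) and higher with the coding length trend removed (0.89, adjusted p = 0.0472).

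**Figure D4:**
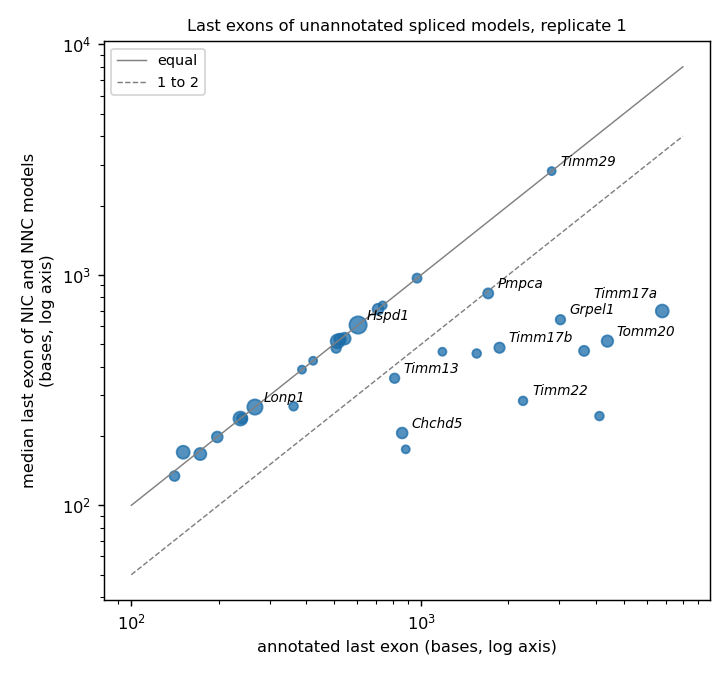
Median last exon of spliced incomplete, NIC and NNC models in replicate 1 (vertical axis, bases), where they keep the last junction of the main transcript. The axis label leaves out the incomplete ones. The horizontal axis is the annotated last exon of the main transcript (bases), and both axes are log. There is 1 point per import gene, with larger points for more reads. The solid line marks equal lengths and the dashed line 50% of the annotated length. Points with a short annotated last exon follow the solid line, and 10 of the 11 with an annotated last exon of at least 1000 bases lie under the dashed one.

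Known transcripts held most import reads, 84.9% in replicate 1 (84.2 to 85.5) and 85.7% in replicate 2 (84.8 to 86.7), a mean of 85.3% ± 0.624 (SD, n = 2), beside 76.5% and 75.5% over all protein-coding genes. The near equality rests on Hspd1. Without it the known share was 94.4% in replicate 1 (93.9 to 94.9) and 85.7% in replicate 2 (84.4 to 86.9). Incomplete models made up 12.1% and 4.91%, and without Hspd1 2.48% and 3.94%. NIC models took 0.763% and 5.35%, beside 3.30% and 6.32% over protein-coding genes. Use of the most used structure among known, NIC and NNC models was compared with Fisher's exact test over the 2186 genes for which each library had 20 or more of them, of which 9.93% were called. Of the 15 import genes tested 2 were called. The coding Hspe1 transcript of 4 exons held 864 of 895 such reads (96.5%) in replicate 1 and 42 of 72 (58.3%) in replicate 2 (Fisher's exact test, adjusted p = 1.97e-18). An annotated retained-intron transcript of Hspe1, of 964 bases, had 4 and 19 reads. The main Tomm40l transcript held 28 of 33 (84.8%) and 12 of 25 (48.0%) (Fisher's exact test, adjusted p = 0.0424), and models that retain an intron held 11 of the 26 Tomm40l reads of replicate 2, against 2 of 36. The share of the main Hspd1 transcript differed little on this scale, at 93.4% and 93.2%, since truncated models do not enter it. With all models entered, 6 of 16 import genes were called, Hspd1 and Tomm70a among them, beside 34.1% of 3059 genes. With known transcripts alone 1 of 8 was called, Hspe1, beside 11.9% of 1283 genes, and with a minimum of 10 reads 2 of 17, beside 8.18% of 3617 genes.

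**Figure D5:**
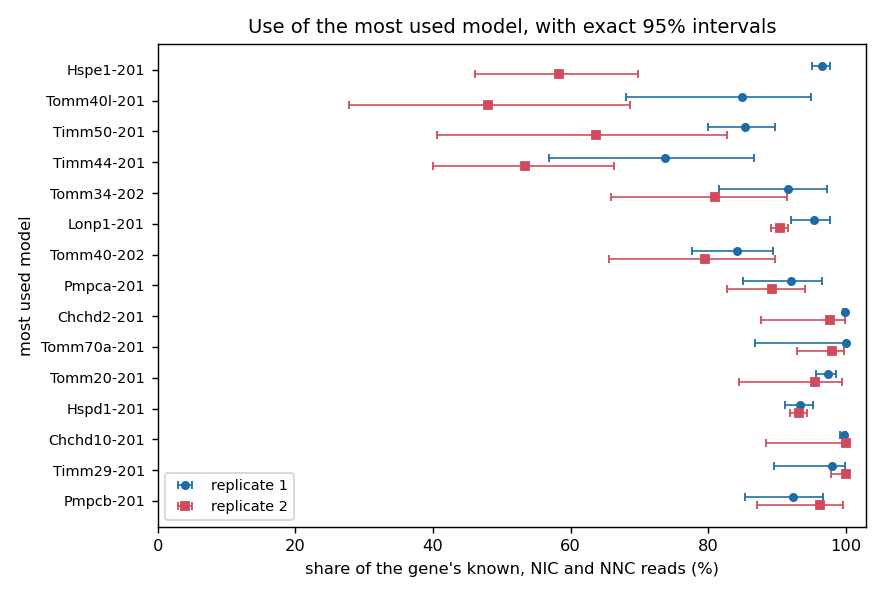
Share of the most used transcript among the known, NIC and NNC reads of each of the 15 import genes tested (horizontal axis, percent), circles for replicate 1 and squares for replicate 2, with exact 95% binomial intervals. The intervals of Hspe1 do not overlap (96.5% and 58.3%), nor do those of Lonp1 (95.4% and 90.5%), which was not called (Fisher's exact test, adjusted p = 0.0754). Most other genes lie above 80% in both libraries.

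Unannotated structures were many and thin: 308 distinct ones over the import genes, of which 223 had a single read, 25 were seen in both libraries and 8 had at least 10 reads. Lonp1 had the most such reads, 11 and 208, followed by Hspd1 with 43 and 118, Timm50 with 32 and 8, Hspe1 with 27 and 11 and Timm44 with 8 and 19. For Lonp1 the main form was retention of introns 7 and 8 of the 18-exon transcript. Intron 7 (593 bases) was kept in 1 read of replicate 1 and 72 of replicate 2 (3.16% of the gene), and intron 8 (715 bases) in 2 and 75 reads (3.30%). A model that keeps both had 29 reads in replicate 2 and none in replicate 1. The best supported Hspd1 structure, with 15 and 45 reads, has a first exon 210 bases shorter than in the main transcript. The next, with 10 and 19 reads, moves the 5′ splice site of intron 5 by 4 bases into the intron, a shift that is no multiple of a codon. The same shift of 4 bases was seen at intron 5 of Lonp1 (2 and 12 reads), intron 2 of Lonp1 (0 and 8 reads) and intron 1 of Tomm20 (9 and 0 reads). In Timm50 a structure that joins the outer ends of introns 3 and 4 and skips the exon between them had 18 and 2 reads. In Hspe1 a structure that keeps intron 2 had 5 and 10 reads.

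Promoters were read from RefSeq for 34 of the 39 genes (250 bases before to 50 bases after the start, GRCm38.p6). The core bound by Ets factors such as GABP, CCGGAAG, stood on either strand in 16 of the 34 (47.1%), beside 9.93% of the 27025 genes in the table and 22.4% of the 7548 of them that are protein-coding with at least 10 reads here. Windows of 23 bases with the core in capitals are shown for the most read gene of each other role that holds it, since it was the searched motif found in the most import promoters.
Tomm70a: ttctgaccCCGGAAGtggttctc
Tomm34: agcccactCTTCCGGccgcttag
Grpel1: ctcctcacCTTCCGGggctccca
Timm8b: agcgtgaaCCGGAAGgcaggaga
Timm29: tctgaccaCTTCCGGgctccact
Chchd3: cagaggctCCGGAAGccctatta
Timmdc1: ccaactcaCTTCCGGggctcgac
They lie on chromosome 16 at 57121626 to 57121648 (plus), chromosome 2 at 164071194 to 164071216 (minus), chromosome 5 at 36464973 to 36464995 (plus), chromosome 9 at 50603881 to 50603903 (plus), chromosome 9 at 21592502 to 21592524 (plus), chromosome 6 at 33060376 to 33060398 (minus) and chromosome 16 at 38522793 to 38522815 (minus), each written 5′ to 3′ on the strand of its gene. The core was present both in genes higher and in genes lower in replicate 2. The CCAAT box, CCAAT, stood in 12 of 34 (35.3%), beside 41.1% of all and 42.7% of the 7548 coding genes. The heat shock element, GAANNTTC, stood in 3, Hspd1, Hspe1 and Timm9 (8.82%), beside 9.04% and 6.92%. The NRF-1 core, GCGCATGCG, stood in Timm13, the YY1 core, AAGATGGCG, in Timm50 and the ERR site, TCAAGGTCA, in Timm8b (2.94% each). The CRE, TGACGTCA, stood in none. Of all promoters 1.95%, 1.64%, 0.466% and 2.03% hold them, in that order. Of the 7548 coding genes 4.54%, 4.20%, 0.318% and 3.82% do. All motifs were searched on both strands, and an absent match says only that those letters are not in the window.

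Of the 39 genes, 13 (33.3%) have the start of another coding gene on the opposite strand within 1000 bases of their own, beside 17.6% of coding genes with at least 10 reads. Apart from Hspd1 with Hspe1, only the pairs with the closest starts are described, so no common direction of the pairs is drawn from them. The starts of Pmpca and Entr1 are 23 bases apart, and both genes had a higher CPM in replicate 2 (114 and 137 reads, 58 and 93 reads). Timm23 and Parg are 51 bases apart and went apart, at 220 and 12 reads for Timm23 and 24 and 35 for Parg, whose annotated transcript of 4413 bases is longer. Timm17b and Pqbp1 are 88 bases apart, with 122 and 0 and 50 and 8 reads. Timm8b faces Sdhd, a subunit of respiratory complex II, across 98 bases, with 189 and 6 and 93 and 9 reads.

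Genes of the same pathway outside the name rule also went in both directions. Of 37 listed, 33 had enough reads to be tested, and 11 were higher, 16 lower and 6 not called, with a median log2 ratio of −0.48. The share higher (33.3%) is near that of all genes tested (36.6%), and the share lower (48.5%) is above theirs (27.9%). Hspa9, the mitochondrial HSP70 that drives the motor, had 377 reads (444 CPM) and 1327 reads (2434 CPM), a log2 ratio of 2.45 (Fisher's exact test, adjusted p = 2.53e-231). Against genes of its transcript length that shrank to 0.94 and was still called higher. Phb, a prohibitin of the inner membrane scaffold, had 656 reads (773 CPM) and 123 reads (226 CPM), a log2 ratio of −1.77, and −1.44 against genes of its transcript length, called lower in each. Minos1, a core subunit of MICOS with 228 coding bases, had 489 reads (576 CPM) and 35 reads (64.2 CPM), a log2 ratio of −3.15. Against genes of its transcript length it was lower by more, at −4.39, and against genes of its coding length it was not called, at −0.19.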

How the data were processed

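The authors deposited, for each of the 2 libraries, a table of raw counts of reads per transcript model and an annotation of the models on mm10 with GENCODE M21, per the file headers and deposited text. The deposited annotation names TALON as the source of unannotated models, while for platform and aligner the sources used here give nothing. Counts were summed per annotated gene. Replicate 1 holds 848782 reads and replicate 2 545229. Intervals are exact Clopper-Pearson (shares, folds) at 95%.

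Genes with at least 10 reads summed were compared with Fisher's exact test, and isoform use likewise, each adjusted after Benjamini and Hochberg, with calls below 0.05; the tests compare libraries and take reads as independent. Unannotated structures were matched between libraries by all introns. Alternatives were edgeR (4.0.16) TMM and DESeq2 (1.42.0) size factors, removal of the length trend, other read minimums and other model classes; removal by coding length was added after seeing the data. R 4.3.3, Python 3.11.15, scipy 1.17.1, pandas 2.3.3, numpy 2.4.6, matplotlib 3.10.9 and Biopython 1.88 (BLOSUM62 global alignment) served. The scripts' tests were run on simulated data.

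The import genes, their roles, the pathway list and the markers were chosen with earlier results of these data known. Values were given in full for the 10 genes of highest mean CPM, those with 0 reads in a library, paralog pairs and genes whose call turned or ended without the length trend, of the pathway list for the 3 called genes of highest mean CPM, and, for structures, for genes past the isoform test and the 5 with the most NIC and NNC reads; other genes are named by their reads for their place in a complex. Strand handling in counting is not stated, and reads of Tomm6, Timm10b and Chchd2 may be split with annotated genes that overlap them on the same strand. Protein sequences were not used here; patterns and identities come from translated GENCODE coding sequences.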

Additional observations from a re-analysis of the deposited data

Results flagged for a closer look

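Reads were assigned to genes that the comparisons did not use. Of 13 pseudogenes named after an import gene, 3 had reads: Hspd1-ps3 had 18 (11 in replicate 1 and 7 in replicate 2), and Chchd2-ps and Dnajc19-ps had 1 each. How reads of near-identical copies were divided is not stated. Unannotated antisense models overlapped several import genes, each above the limit of 3 reads: 13 reads over Chchd3, 12 over Chchd7, 10 over Timmdc1, 8 over Tomm70a, 5 over Hspd1, 4 over Timm17b and 4 over Tomm34. The antisense models with the most reads each had a single exon. Over Timmdc1 the 10 antisense reads, all in replicate 1, stood beside 14 sense reads. Over Chchd7 the antisense reads were 9 and 3, beside 83 and 4 sense reads.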

How the results depend on the processing

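No paired analysis was possible because the series has 1 group. Leaving out a library leaves no comparison. The import share then ranges from 0.956% to 1.23% and the known share from 84.9% to 85.7%, or from 85.7% to 94.4% without Hspd1. Lower calls numbered 29, and 15 with the coding length trend removed. Isoform calls numbered 2, 6 with all models and 1 with known models alone. The following log2 ratios changed sign; the cause was not tested. Under TMM they were Tomm34 −0.37, Tomm40l −0.27 and Timmdc1 −0.039, under DESeq2 size factors −0.38, −0.28 and −0.051, and with known models alone Tomm40l −0.46; none of these was called. With the length trend removed they were Hspd1 −0.30, Hspe1 0.53, Pmpca −0.56, Tomm40 0.32, Pmpcb 0.87 and Tomm40l −0.99, and with a narrower window −0.29, 0.53, −0.69, 0.41, 0.89 and −0.94; Tomm40 alone was not called. With the coding length trend removed they were Hspd1 −0.48, Hspe1 0.46, Pmpca −0.084, Tomm70a −0.11, Chchd4 0.50, Timm8a1 0.72 and Chchd5 0.26, with Hspd1 and Hspe1 alone called. A minimum of 1 read kept the call of all 39 genes. Depth limits the genes with under 10 reads in replicate 2 whose folds have wide intervals.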

Other observations

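Dnajc19 and Timm10b have several annotated transcripts with reads, and the short ones had none in replicate 2. For Dnajc19 the transcript of 659 bases had 102 reads in replicate 1 and 0 in replicate 2, while those of 1695 and 2499 bases had 4 and 2 and 8 and 1. For Timm10b the transcripts of 694 and 529 bases had 11 and 17 reads in replicate 1 and 0 in replicate 2, and the transcript of 3273 bases had 37 and 2. Chchd4 had 67 and 4 reads of its 3-exon transcript and 3 and 4 of a single-exon one. With so few reads in replicate 2 these are values and not a comparison.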
